A study of Mus musculus with 28 samples.

Results

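The 9 genes described here carry out or control the making of thyroid hormone: Tg (ENSMUSG00000053469), Iyd (ENSMUSG00000019762), Dio1 (ENSMUSG00000034785), Slc26a7 (ENSMUSG00000040569), Tshr (ENSMUSG00000020963), Slc5a5 (ENSMUSG00000000792), Duox2 (ENSMUSG00000068452), Slc26a4 (ENSMUSG00000020651) and Slc5a8 (ENSMUSG00000020062). They were taken by name, through their Ensembl identifiers, from the 47643 gene rows of each of 28 count tables. The tables came from freshly sorted cells of H2B-GFP mice, profiled by sequencing of messenger RNA 3′ ends. H2B-GFP is a histone fused to green fluorescent protein, a label that cell division dilutes, and the series asks about quiescent cells in the upkeep of the thyroid. Thyroid cells were sorted into a GFP-negative (GFP-) and a GFP-positive (GFP+) fraction at 3, 6 and 9 months of age, with 4, 4 and 3 libraries per fraction. Salivary gland cells were sorted the same way at 9 months, with 3 libraries per fraction. All groups carry the H2B-GFP label, and no further genotype, treatment or agent is named for any of them. The promoter behind the transgene, any schedule for switching the label off, the sex of the mice and the gates of the sort are not given in the sources used here. The labels do not say that replicates are separate animals, so every p-value measures only the spread between these samples, which may be technical.

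Thyroid hormone is built on thyroglobulin, the large protein that Tg encodes and that follicular cells secrete into the lumen of the follicle. Iodide enters the cell through the sodium iodide symporter Slc5a5, and pendrin (Slc26a4) and the related anion transporter Slc26a7 have been linked to iodide handling on its way to the lumen. Duox2 supplies the hydrogen peroxide needed to couple iodine to thyroglobulin. Iyd recovers iodide from iodotyrosines, Dio1 removes iodine from thyroid hormones in their activation and clearance, and Slc5a8 is a monocarboxylate transporter that was first described in thyroid as an apical iodide transporter. Tshr is the receptor for thyroid-stimulating hormone, which drives the whole program.

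Between 507 and 209091 reads per library fell in genes, 2263832 over the series. The libraries are uneven, and 6 of the 28 hold under 10000 reads: the GFP- replicate 2 at 6 months, the GFP- replicate 1 at 9 months, the GFP+ replicates 1 and 2 at 3 months, the GFP+ replicate 4 at 6 months and the salivary GFP+ replicate 1. Levels are given as CPM, the reads of a gene per 1000000 reads in genes. A gene with 0 reads could be present at up to 3 reads, which is 14.3 to 5917 CPM depending on the library, and such limits and all read intervals cover counting error only. In bulk samples such as these, fewer follicular cells and less RNA per follicular cell cannot be told apart. Thyroid follicular regulators checked the tissue. Pax8, Nkx2-1, Foxe1 and Hhex together had 152 reads in thyroid GFP-, 69 in thyroid GFP+, 0 in salivary GFP- and 1 (Hhex, 84.8 CPM in its library) in salivary GFP+, while in thyroid GFP+ at 9 months Pax8 and Hhex had none.

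Of the 9 genes, 8 had at least 1 read and Slc26a4 had none in any library. Tg, Iyd, Dio1 and Slc26a7 passed the filter on low counts in the thyroid comparison and were tested. The other members are described by their reads. Promoter sequence of the mouse assembly GRCm38.p6 was at hand in RefSeq for 6 of the 9 (Iyd, Dio1, Slc5a5, Duox2, Slc26a4 and Slc5a8). The 250 bases before the start of Iyd (chr10:3540024-3540273, plus strand) and of Dio1 (chr4:107307169-107307418, minus strand) are printed because these are the tested members that have one. Both run 5′ to 3′ along the gene, and capitals mark the motif TATAAA.
Iyd: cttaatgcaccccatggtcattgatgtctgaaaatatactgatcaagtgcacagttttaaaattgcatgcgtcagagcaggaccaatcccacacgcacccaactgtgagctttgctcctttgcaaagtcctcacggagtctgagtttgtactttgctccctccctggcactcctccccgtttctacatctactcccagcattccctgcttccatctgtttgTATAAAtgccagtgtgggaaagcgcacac
Dio1: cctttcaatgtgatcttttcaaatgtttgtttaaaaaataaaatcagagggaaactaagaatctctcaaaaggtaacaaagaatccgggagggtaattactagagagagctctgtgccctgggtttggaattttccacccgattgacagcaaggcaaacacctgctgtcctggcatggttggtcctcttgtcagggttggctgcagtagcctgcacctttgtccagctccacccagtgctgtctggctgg

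The Iyd window holds TATAAA 29 bases before the start, and that of Slc26a4 holds a match 31 bases before it. The Dio1 window and the other 3 have no match on either strand in the 300 bases searched. TATAAA or its complement TTTATA stands in 13.6% of all 32851 promoters of the same table. The core CTCAAG, or CTTGAG on the other strand, which the thyroid factor NKX2-1 binds, occurred 106 bases before the start of Duox2 and 152 before that of Slc26a4, and in 15.9% of all promoters. A match is a description of the letters and not a binding site.

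By measured CPM, Tg was lower in every GFP+ than in every GFP- library at 3 and 9 months. At 3 months the GFP- replicates 1 to 4 held 6765, 4904, 4506 and 4615 CPM (mean 5197 ± 1059, SD, n = 4). The GFP+ replicates held 1921, 1018, 1931 and 3675 CPM (mean 2136 ± 1112, SD, n = 4). The highest GFP+ library lay below the lowest GFP- library. Replicates 1 and 2 of GFP+ rest on few reads of Tg, however, 3 of 1562 and 6 of 5896. The share of all genes with fractions apart in this way was not counted, here or for the members below. At 6 months the GFP- replicates held 7040, 1858, 3310 and 1993 CPM (mean 3550 ± 2417, SD, n = 4), against 3421, 1586, 2368 and 0 CPM in GFP+ (mean 1844 ± 1441, SD, n = 4). Here the fractions overlapped, and the 0 came from the library of 507 reads, in which 3 reads of Tg would already be 5917 CPM. At 9 months the GFP- replicates held 680, 5362 and 9032 CPM (mean 5024 ± 4186, SD, n = 3). The GFP+ replicates held 491, 335 and 407 CPM (mean 411 ± 78.4, SD, n = 3). The fractions were again apart, but narrowly for the GFP- replicate 1, whose 680 CPM is 4 reads of 5884. Ordered by mean, the GFP- groups at 3, 9 and 6 months stood first, the GFP+ groups at 3 and 6 months next, and the GFP+ group at 9 months last. The first 3 did not differ beyond their spread, nor did the GFP+ groups at 3 and 6 months.

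**Figure D1:**
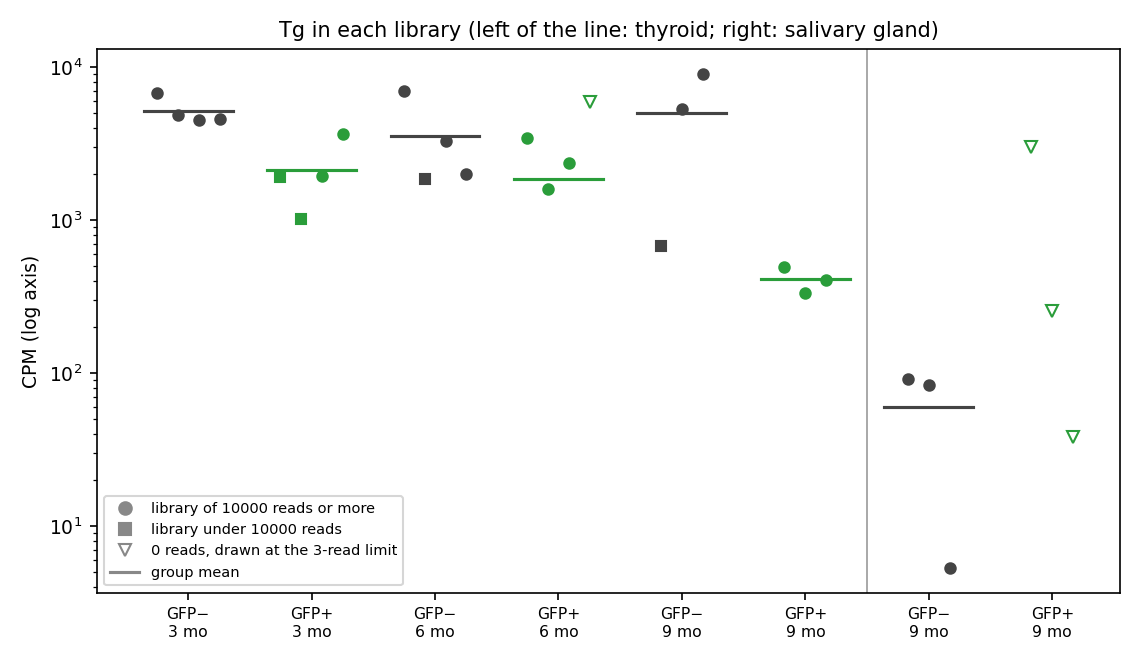
Tg in each of the 28 libraries, in CPM on a log axis, by gland, fraction and months (grey GFP-, green GFP+, salivary gland to the right of the line). Circles are libraries of at least 10000 reads, squares smaller ones, open triangles libraries with 0 reads drawn at their limit of 3 reads, and bars the group means. The 3 GFP+ thyroid libraries at 9 months sit between 335 and 491 CPM, below all 3 GFP- libraries.

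Iyd, the iodotyrosine deiodinase, varied more within groups. At 3 months its GFP- replicates held 343, 287, 35.8 and 244 CPM (mean 227 ± 134, SD, n = 4) and its GFP+ replicates 0, 0, 429 and 194 CPM (mean 156 ± 204, SD, n = 4). At 6 months the values were 301.7, 0, 158 and 78.0 CPM in GFP- (mean 134 ± 129, SD, n = 4) and 118, 39.3, 40.9 and 0 CPM in GFP+ (mean 49.4 ± 49.2, SD, n = 4). The fractions overlapped at both ages, and of the zeros all lay in libraries under 10000 reads. At 9 months the GFP- replicates held 0, 294.1 and 384 CPM (mean 226 ± 201, SD, n = 3), and the GFP+ replicates 0, 41.1 and 11.6 CPM (mean 17.6 ± 21.2, SD, n = 3). Among the libraries of at least 10000 reads, which leaves 2 GFP- and 3 GFP+ libraries at that age, every GFP+ value was below every GFP- value.

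Dio1, the type 1 deiodinase, was seen in 8 of 11 GFP- thyroid libraries and in 4 of 11 GFP+ ones. At 3 months the GFP- replicates held 118, 183, 215 and 103 CPM (mean 155 ± 53.2, SD, n = 4). The GFP+ replicates held 0, 0, 0 and 85.7 CPM (mean 21.4 ± 42.9, SD, n = 4), so that 1 library held all the reads of its group. The measured values did not overlap. The 3-read limits of the zeros were 1921, 509 and 161 CPM, however, within or above the GFP- range, so the fractions may overlap. At 6 months Dio1 was low in both fractions, at 0, 0, 23.9 and 60.6 CPM in GFP- (mean 21.1 ± 28.6, SD, n = 4) and 58.8, 0, 15.3 and 0 CPM in GFP+ (mean 18.5 ± 27.8, SD, n = 4), and the fractions overlapped. At 9 months it stood at 0, 67.9 and 123 CPM in GFP- (mean 63.6 ± 61.6, SD, n = 3) and at 0, 5.87 and 0 CPM in GFP+ (mean 1.96 ± 3.39, SD, n = 3), which is 25 reads against 1. The fractions overlapped only through the GFP- library of 5884 reads.

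Slc26a7, the anion transporter, had the smallest fitted fold change of the 4 over the mean of ages, though not at 6 months. At 3 months the GFP- replicates held 150, 208, 107 and 192 CPM (mean 164 ± 45.2, SD, n = 4), and the GFP+ replicates 0, 170, 107 and 251 CPM (mean 132 ± 106, SD, n = 4). At 6 months they held 134, 0, 90.9 and 60.6 CPM in GFP- (mean 71.4 ± 56.3, SD, n = 4) and 106, 26.2, 40.9 and 0 CPM in GFP+ (mean 43.2 ± 45.0, SD, n = 4). At both ages the values interleaved. At 9 months the GFP- replicates held 0, 241 and 169 CPM (mean 137 ± 124, SD, n = 3) and the GFP+ replicates 30.7, 11.7 and 69.8 CPM (mean 37.4 ± 29.6, SD, n = 3). The 2 deeper GFP- libraries were above all 3 GFP+ libraries.

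**Figure D2:**
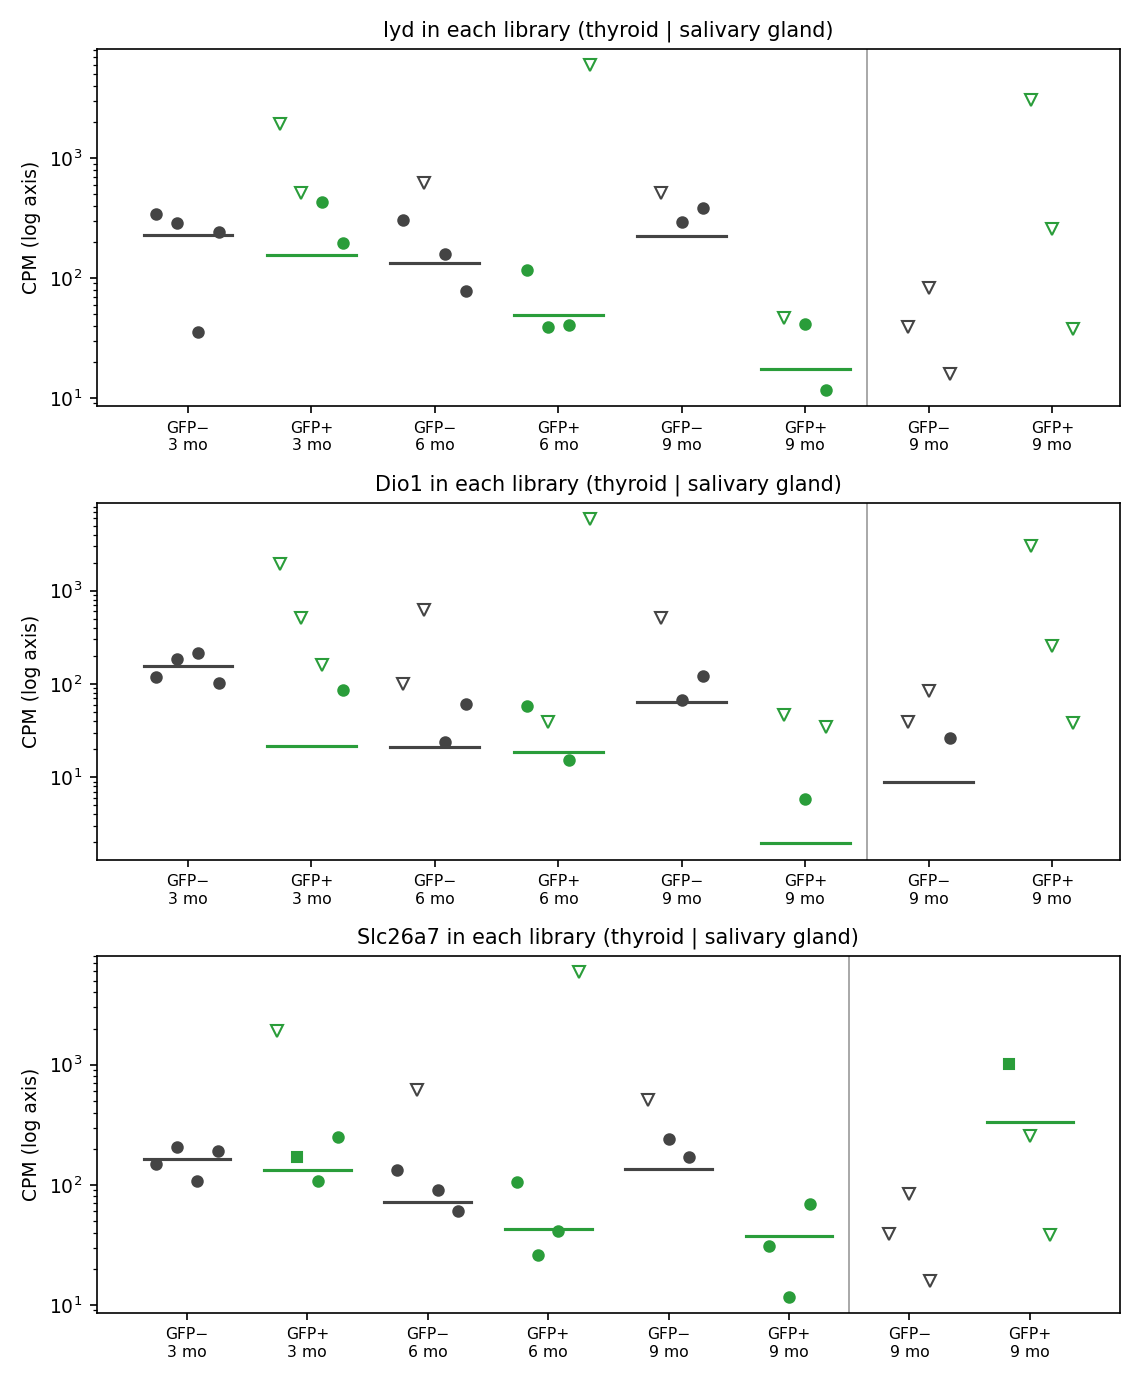
Iyd, Dio1 and Slc26a7 in each of the 28 libraries, in CPM on log axes, by gland, fraction and months, with grey for GFP- and green for GFP+. Circles are libraries of at least 10000 reads, squares smaller ones, open triangles 0 reads drawn at the limit of 3 reads, and bars the group means. Dio1 has 1 filled GFP+ symbol at 3 months (85.7 CPM) and 1 at 9 months (5.87 CPM).

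Averaged over the 3 ages, all 4 tested members were lower in GFP+ than in GFP- thyroid cells. The test was edgeR's quasi-likelihood test on all 22 thyroid libraries, and p-values were adjusted by Benjamini-Hochberg over all 1900 genes tested. Fold changes are on the log2 scale and are negative where GFP+ was lower. They were -2.22 for Tg (SE 0.49, adjusted p = 8.58e-05), -1.96 for Iyd (SE 0.41, adjusted p = 2.61e-05), -2.30 for Dio1 (SE 0.58, adjusted p = 0.000756) and -1.21 for Slc26a7 (SE 0.41, adjusted p = 0.0178). That is 4 of 4 called lower at an adjusted p under 0.05, where 8.79% of all tested genes were called lower. The filter on low counts admits a gene on its higher fraction alone. Dio1 entered through GFP- libraries alone (up to 215 CPM, against at most 85.7 CPM in GFP+), and Iyd and Slc26a7 mainly through them. Entry of these members thus favoured calls of lower, here and at single ages. The members were also chosen with earlier results of these data known. Their count beside the share of all genes is thus a description and no test of the set, here and at single ages. The median log2 fold change was -2.09 for the 4 and -0.08 for all 1900 genes. In summed reads, GFP- held 2.61 times the Tg level of GFP+ (95% interval 2.47 to 2.76), 2.99 times that of Iyd (2.28 to 3.95), 3.40 times that of Dio1 (2.15 to 5.58) and 1.75 times that of Slc26a7 (1.32 to 2.34). The GFP+ replicate 4 at 3 months weighs on these sums, since without it the ratios were 3.37, 4.60, 7.27 and 3.34.

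Without the 5 thyroid libraries under 10000 reads, all 4 genes were again called lower. Tg and Iyd kept their call in each alternative fit that tested them and with any 1 library left out. Dio1 lost it in DESeq2 (adjusted p = 0.151, against 0.000676 to 0.151 over its alternatives). It was tested in 7 of 9 alternatives and in 15 of 22 fits without 1 library, and kept its call in those 15. The Slc26a7 call was the least steady and ended in 5 of 8 alternatives, with adjusted p-values from 0.0190 to 0.363 over them, and without any of 5 single libraries. These were the GFP- replicate 3 at 6 months (adjusted p = 0.0565), the GFP- replicates 2 and 3 at 9 months (0.119 and 0.0521) and the GFP+ replicates 1 and 2 at 9 months (0.0547 and 0.146). Scaling moved the centre of all genes: their median fold change was 0.22 with DESeq2's size factors and 0.21 with library size alone. Of all calls, 216 were higher and 167 lower in the main comparison, whereas 127 of 433 and 133 of 450 were lower under those scalings. The directions of the 4 members were unchanged by them.

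Markers of other cells moved along with the fractions over the same mean of ages, where 216 of all 1900 genes were called higher and 167 lower. These lists too were chosen with earlier results of these data known. Of the fibroblast genes, 8 of 8 tested were higher in GFP+, and their summed level per library ran from 1073 to 8694 CPM in GFP- (median 1920) and from 0 to 18233 CPM in GFP+ (median 14110). Endothelial genes were lower in GFP+ in 7 of 7 (1865 to 8126 CPM in GFP- and 0 to 1921 in GFP+), red cell genes in 4 of 4 (358 to 14439 and 0 to 1739 CPM), C cell genes in 3 of 3 (2039 to 27859 and 678 to 21134 CPM) and parathyroid genes in 2 of 2 (5099 to 68516 and 2418 to 61464 CPM). Pericyte and smooth muscle genes were higher in 2 of 4 (179 to 680 and 0 to 2138 CPM). The C cell sums were mostly Chga, with 12731 of 15315 reads of the list in GFP- and 6617 of 6726 in GFP+. Over the summed reads, Calca of that list stood at 2343 CPM in GFP- and 114 in GFP+, and Calcb was at 0 in both fractions. Of 7 immune genes none was tested, and Ptprc, Cd68, Adgre1, Cd3e and Cd79a had 0 reads in all thyroid libraries. Lyz2 had 21 reads in GFP- and 44 in GFP+ (up to 251 CPM in a library), and Csf1r had 1 read in GFP-. Among genes of the epithelium, Cdh1 fell by 1.07 (adjusted p = 0.0347), while Epcam (log2 fold change -0.84, adjusted p = 0.127) and the follicular regulator Foxe1 (-1.13, adjusted p = 0.127) did not pass. The part of these cells in the difference of the hormone genes was not tested.

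Taken age by age, the fractions were furthest apart at 9 months. At 3 months 0 of the 4 passed, with log2 fold changes of -1.91 for Tg (adjusted p = 0.110), -0.68 for Iyd (0.605), -1.75 for Dio1 (0.187) and -0.30 for Slc26a7 (0.864). Of all genes 4.74% were called lower at that age, and 406 genes had an unadjusted p under 0.05, Tg and Dio1 among them. The Tg difference at 3 months depended on the libraries and the filter: it passed without libraries under 10000 reads (-1.16, adjusted p = 0.0300), under a stricter filter (-1.58, 0.0168), with only the groups compared (-1.53, 0.0372), without the GFP+ replicate 4 at 3 months (-2.91, 0.0325) and without the GFP+ replicate 4 at 6 months (-1.93, 0.0233), within a range of 0.0168 to 0.554 over its alternatives. Slc26a7 changed sign at this age with DESeq2's size factors (0.33), with library size alone (0.19), without libraries under 10000 reads (0.02) and in DESeq2 (0.31). Under the first of these the median of all genes moved from -0.26 to 0.41, and the genes called lower went from 90 of 184 to 50 of 251. With library size alone they were 66 of 265.

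At 6 months 0 of the 4 passed either, against 1.84% of all genes called lower. The log2 fold changes were -0.95 for Tg (adjusted p = 0.629), -1.49 for Iyd (0.208), -0.77 for Dio1 (0.799) and -0.87 for Slc26a7 (0.629), and DESeq2 called none of Tg, Iyd and Slc26a7 and gave no adjusted p for Dio1. Over all genes 326 had an unadjusted p under 0.05 in edgeR, and Iyd was the 1 member among them.

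At 9 months 3 of the 4 were lower in GFP+, against 1.63% of all genes. Their log2 fold changes were -3.79 for Tg (SE 0.99, adjusted p = 0.00829), -3.70 for Iyd (SE 0.78, adjusted p = 0.000521) and -4.39 for Dio1 (SE 1.18, adjusted p = 0.0124), while Slc26a7 stood at -2.47 (SE 0.77, adjusted p = 0.0619). In summed reads the GFP- fraction held 18.2 times the Tg level of GFP+ (15.2 to 22.1), 13.3 times that of Iyd (6.47 to 31.8), 29.9 times that of Dio1 (4.89 to 1228) and 6.46 times that of Slc26a7 (3.26 to 14.2). At this age 6 of 7 endothelial genes were called lower, and so were 2 of 3 C cell genes, Calca (-3.93) and Scg2 (-4.48). Of 8 fibroblast genes 0 were called, with a median log2 fold change of 1.39, where 5 of all 1900 genes were called higher. Of red cell genes 0 of 4, of parathyroid genes 0 of 2 and of pericyte and smooth muscle genes 0 of 4 were called. The part of these cells was not tested. Without libraries under 10000 reads all 4 hormone genes passed, Slc26a7 with -2.68 (adjusted p = 0.0150) and Tg with -4.30. Slc26a7 passed also with library size alone (-2.41, 0.0300) and in 7 fits that left out 1 library (adjusted p = 0.0336 to 0.0485).

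The calls at 9 months rest on few libraries. Tg lost its call without the GFP- replicate 2 (adjusted p = 0.144) or 3 (0.362) of that age, or without the GFP+ replicate 1 (0.280), 2 (0.306) or 3 (0.188). Dio1 was tested in 15 of 22 fits without 1 library. It lost its call without the same libraries, with adjusted p-values of 0.0653, 0.289, 0.146, 0.112 and 0.1002 in that order. Iyd lost it without the GFP- replicate 3 (0.0619) or the GFP+ replicate 1 (0.104). Other settings ended calls as well. Tg lost its call with no filter (adjusted p = 0.644), with all 28 libraries in 1 fit (0.0759) and with a replicate block (0.696). Iyd lost it with no filter (0.227), with the block (0.0895) and in DESeq2 (0.126). Dio1 lost it with no filter (0.304) and with the block (0.147). No fitted direction turned in the fits without 1 library, and the log2 fold changes of Tg stayed between -2.96 and -4.31 in them.

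**Figure D3:**
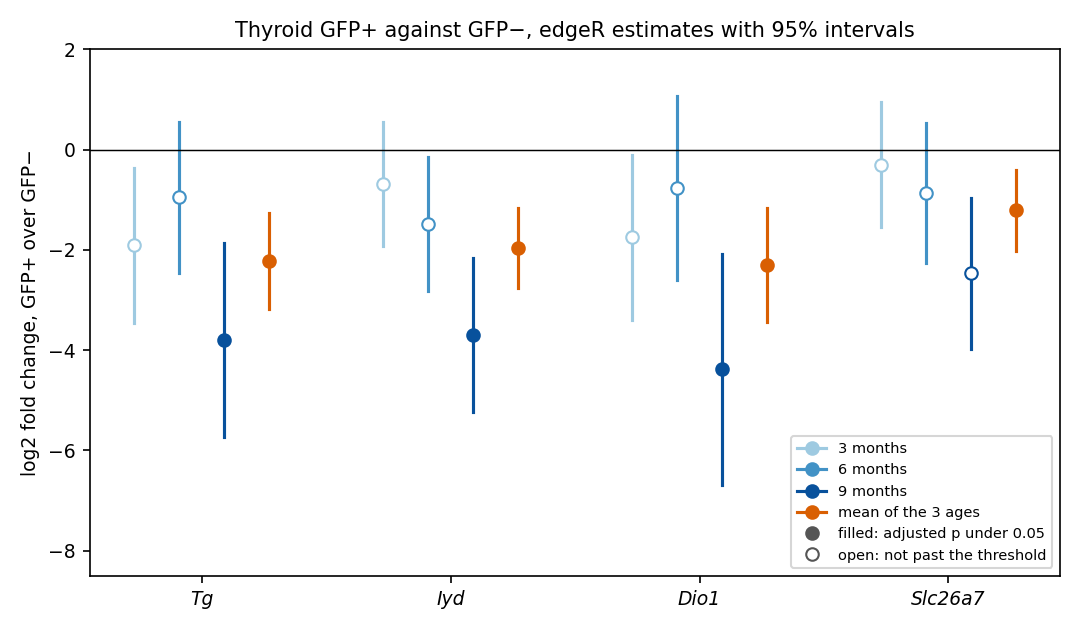
Fitted log2 fold change of GFP+ against GFP- thyroid cells for Tg, Iyd, Dio1 and Slc26a7 at 3, 6 and 9 months and as the mean of the ages, with 95% intervals. Filled symbols have an adjusted p under 0.05. All 4 means of ages are filled, and the 9 month values of Tg, Iyd and Dio1, from -3.70 to -4.39, are the only filled values at a single age.

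Whether the difference between fractions itself changed with age was tested as an interaction over the 3 ages. None of the 4 passed, against 0.158% of all genes (3 of 1900), with adjusted p = 0.631 for Iyd and 1 for each of the others. The unadjusted p was 0.00996 for Iyd, 0.0574 for Tg, 0.0598 for Dio1 and 0.0859 for Slc26a7. For Tg the answer depended on the scaling and the shallow libraries: its adjusted p was 0.00904 with DESeq2's size factors, 0.0130 with library size alone, 0.0383 under a stricter filter and 1.46e-05 without libraries under 10000 reads. The difference of the GFP effect between 9 and 3 months was -3.02 for Iyd (95% interval -4.99 to -1.05) and -1.88 for Tg (-4.20 to 0.44), on the log2 scale.

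Within the GFP- fraction, none of the 4 members passed the test for age, against 1.53% of all genes. The lowest adjusted p among them was that of Dio1 (0.346). Its fitted log2 difference of 6 from 3 months was -2.04 (95% interval -3.61 to -0.46). Within the GFP+ fraction none passed the test over the 3 ages either, against 1.58% of all genes, but all 4 had an unadjusted p under 0.05. Adjusted p-values were 0.0794 for Iyd, 0.273 for Slc26a7, 0.361 for Dio1 and 0.541 for Tg. From 3 to 9 months the fitted GFP+ levels of Iyd changed by -2.88 (95% interval -4.49 to -1.28), of Dio1 by -3.51 (-5.93 to -1.09), of Slc26a7 by -2.19 (-3.71 to -0.66) and of Tg by -2.01 (-3.76 to -0.26). As a contrast of these 2 ages alone, Iyd passed (edgeR adjusted p = 0.0486) and the other 3 did not (0.228 to 0.480), against 0.316% of all genes called lower at 9 months; this contrast was not refitted under the alternatives. In the test over 3 ages Tg and Iyd did pass with DESeq2's size factors (adjusted p = 0.00155 and 0.0209), with library size alone (0.00131 and 0.0136) and without libraries under 10000 reads (9.15e-06 and 0.0178). Iyd passed also without the GFP+ replicate 2 at 3 months (0.0332).

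Tg gave most of the hormone gene reads in both fractions. It held 4951 of the 5475 reads of the 9 genes in GFP- thyroid cells, 90.4% (exact binomial 95% interval 89.6 to 91.2), and 1687 of 1888 in GFP+, 89.4% (87.9 to 90.7). By age the shares were 89.0% in GFP- and 84.6% in GFP+ at 3 months, 91.2 and 94.3% at 6 months, and 91.4 and 84.4% at 9 months, so that the fraction with the higher share changed with age. The difference of these shares between the fractions was not tested. Per 100 reads of Tg, the summed libraries held 4.83 reads of Iyd in GFP- (4.22 to 5.497) and 4.21 in GFP+ (3.27 to 5.34). For Dio1 they held 1.86 (1.495 to 2.28) and 1.42 (0.909 to 2.12). The intervals overlapped for both genes, but 15 of the 24 Dio1 reads of GFP+ came from its replicate 4 at 3 months, and without that library the GFP+ value was 0.862 (0.393 to 1.64). Slc26a7 stood at 3.03 in GFP- (2.56 to 3.56) and 4.51 in GFP+ (3.53 to 5.67), and these intervals overlapped only at their ends. Without the same library the GFP+ value was 3.07 (2.09 to 4.35). The intervals are of counting error and leave out the spread between libraries, which for Slc26a7 was 1.87 to 4.50 over the 9 GFP- and 1.65 to 17.1 over the 8 GFP+ libraries of at least 10000 reads.

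Across those 17 thyroid libraries the 4 genes varied in the same direction. The Spearman correlation with Tg of the normalised log2 CPM was 0.797 for Slc26a7, 0.733 for Iyd and 0.650 for Dio1, and between Iyd and Dio1 it was 0.444. These values describe the libraries, which share fraction, age and depth, and carry no test. Among 1825 genes searched, the 5 most like Tg were Pdia6 (0.919), a protein disulfide isomerase of the endoplasmic reticulum, Chchd10 (0.909), a mitochondrial protein, Arap3 (0.864), Atp1b1 (0.858), a subunit of the sodium pump, and Cd24a (0.855), a surface glycoprotein. Of the searched genes 11 ranked above Slc26a7, 31 above Iyd and 72 above Dio1. Arap3 fell to rank 70 when all 22 libraries were used, and the other 4 stayed in the first 8.

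The receptor and the transporters were near the limit of detection. Tshr, the receptor, had 15 reads in 4 of 11 GFP- libraries and 5 reads in 2 of 11 GFP+ libraries, or 15.1 and 5.68 CPM over the summed reads. Slc5a5, the iodide symporter, had 11 reads in 5 GFP- libraries and 2 reads in 2 GFP+ libraries, or 11.1 and 2.27 CPM. The ratio of GFP- to GFP+ was 2.66 for Tshr (0.920 to 9.37) and 4.88 for Slc5a5 (1.07 to 45.3). Without the GFP+ replicate 4 at 3 months it was 10.7 (1.64 to 449) and 7.83 (1.14 to 337). In a fit with no filter on low counts neither gene passed (Slc5a5 -1.92, adjusted p = 0.256, and Tshr -1.77, adjusted p = 0.293). Duox2, the oxidase, had 9 reads in 5 GFP- libraries and 10 reads in 3 GFP+ libraries, a ratio of 0.799 (0.287 to 2.19), which was 1.28 (0.385 to 4.86) without the same library. Slc5a8 had 8 reads in 4 GFP- libraries and 13 in 3 GFP+ libraries, a ratio of 0.547 (0.196 to 1.42), and 11 of the 13 came from the GFP+ replicate 4 at 3 months. Without that library the ratio was 2.85 (0.568 to 27.5). No difference of Duox2 or Slc5a8 between the fractions was detectable at this depth. Slc26a4 had 0 of 990686 reads in GFP- and 0 of 879797 in GFP+, which allows up to 3.03 and 3.41 CPM.

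The salivary gland served as a tissue without follicles, at 9 months. Tg was present at 91.4, 83.1 and 5.30 CPM in the salivary GFP- replicates (mean 59.9 ± 47.5, SD, n = 3), 11 reads in all, and had 0 reads in salivary GFP+. By measured CPM, every thyroid GFP- library lay above every salivary one, though 0 reads in the salivary GFP+ replicate 1 allow up to 3021 CPM. The thyroid to salivary ratio of summed GFP- reads was 193 for Tg (108 to 387), and Iyd and Slc26a7, with 0 salivary reads, were at least 33.3-fold and at least 20.2-fold higher in thyroid, against a floor of 3 reads over the group. Dio1 had 5 salivary GFP- reads, all in replicate 3 (26.5 CPM), for a ratio of 5.61 (2.11 to 18.8). In edgeR's fit of the 12 libraries at 9 months, Tg and Slc26a7 were tested. Both were called higher in thyroid GFP-, against 9.86% of the 974 genes tested. Tg was higher by 4.73 on the log2 scale (SE 1.20, adjusted p = 0.00186), and Slc26a7 had adjusted p = 0.00237. For Tg this is a smaller difference than the ratio of summed reads, which uses no scaling factors and weighs deep libraries most. Slc26a7 passed the filter only with the help of 1 salivary GFP+ read, 1007 CPM in a library of 993 reads. Iyd, with 89 thyroid GFP- reads against 54 of Slc26a7, did not pass it. Tg lost its call without the salivary GFP- replicate 2 (adjusted p = 0.0510) or 3 (0.156), and Slc26a7 without the thyroid GFP- replicate 2 (0.106) or 3 (0.0548) or the salivary replicate 3 (0.252). Scaling shifted this comparison as a whole: the median of all genes was 0.17 in the main fit, 1.60 with DESeq2's size factors and 1.96 with library size alone. With no filter on low counts neither Tg (0.0747) nor Slc26a7 (0.0578) was called, while Iyd, then tested, was (7.18, adjusted p = 0.0103). Of the calls, 42 of 138 were lower in thyroid in the main fit, against 32 of 501 and 32 of 721.

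In the GFP+ fractions, 124 reads of Tg in thyroid stood against 0 in salivary gland, at least 11.8-fold, and 10 reads of Slc26a7 against 1. Neither gene was called (Tg adjusted p = 0.0746, Slc26a7 0.924), against 9.55% of genes called higher in thyroid. Tg passed in 5 of the alternatives, with adjusted p from 0.000599 to 0.0256 in those. The single salivary GFP+ read of Slc26a7 fell in the library of 993 reads, where it is 1007 CPM. The median of all genes was 1.16 here and 2.81 with DESeq2's size factors, under which 39 of 708 calls were lower in thyroid, as were 40 of 728 with library size alone, against 49 of 142. Between salivary GFP+ and GFP- neither Tg (adjusted p = 0.496) nor Slc26a7 (0.653) was called by edgeR, and 0% of the 974 genes were, with 97 genes at an unadjusted p under 0.05 and 0 called by DESeq2. The test of whether the GFP difference differs between the glands called neither gene and 0% of genes, with 89 at an unadjusted p under 0.05 and 0 called by DESeq2. Slc5a8 was the one member with more reads in salivary gland, 12 in GFP- (11 of them in replicate 3) against 1 in thyroid GFP-, a thyroid to salivary ratio of 0.0935 (0.00219 to 0.632).

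The other tested genes of the hormone pathway were called lower at about the share of all genes. Of 34 further genes, listed for their roles in synthesis, thyroglobulin folding and breakdown, hormone transport and signalling, 12 were tested over the mean of ages. None was called higher, against 216 of all 1900 genes. In GFP+ 1 was lower, Asgr1 (-1.16, adjusted p = 0.0439), a receptor that has been linked to uptake of thyroglobulin, against the 8.79% of all genes called lower. Its call ended in 7 of 8 alternatives (adjusted p = 0.0426 to 0.340) and in 14 of 22 fits without 1 library. The median of the 12 was -0.30, beside -0.08 for all genes. Gnas, which carries the signal of the TSH receptor, stood at -1.03 (0.0894). It was called lower in 2 of 9 alternatives, the stricter filter (0.0245) and without libraries under 10000 reads (0.00804), and in 3 of 22 fits without 1 library. These left out the GFP- replicate 2 at 6 months (0.0343), the GFP+ replicate 4 at 3 months (0.0465) or the GFP+ replicate 3 at 6 months (0.0345). The chaperones of thyroglobulin folding lay closer to 0, with Calr at -0.65 (0.283), Pdia4 at -0.55 (0.537), Hspa5 at -0.31 (0.751) and Canx at -0.28 (0.706), of which Hspa5 and Canx were slightly above 0 with DESeq2's size factors and with library size alone. The proteases were at -0.62 for Lgmn (0.4703), 0.18 for Ctsl (0.840), 0.26 for Ctsd (0.777) and 0.26 for Ctsb (0.738), the kinase subunit Prkaca at 0.02 (0.995) and the hormone receptor Thra at 0.55 (0.437). Most of these genes are made by many cell types.

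At 9 months 0 of these 12 genes were called in either direction by edgeR, against 36 of all 1900 genes. Asgr1 (-2.71, adjusted p = 0.0619) was the 1 gene of the 12 with an unadjusted p under 0.05. The median of the 12 at this age was -0.11, beside 0.11 for all genes. Tg, Iyd and Dio1 were called lower at the same age, as were 1.63% of all genes.

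**Figure D4:**
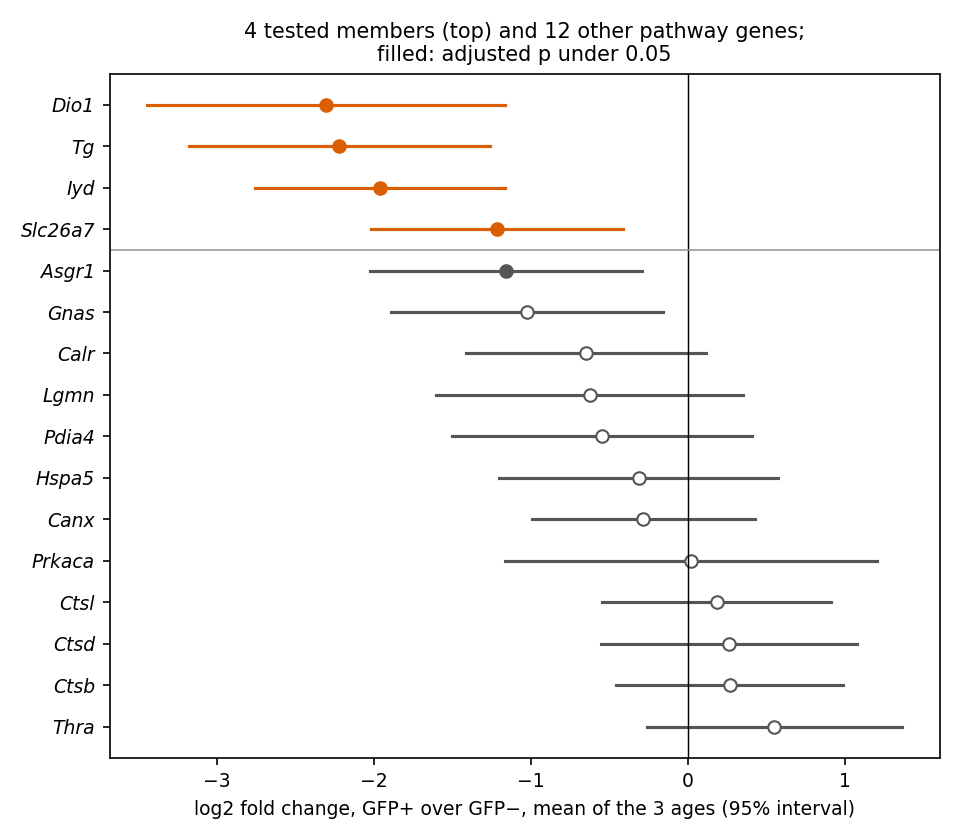
Fitted log2 fold change of GFP+ against GFP- thyroid cells, as the mean of the 3 ages, for the 4 tested members (top) and 12 further genes of the pathway, with 95% intervals. The members lie between -1.21 and -2.30 and the further genes between -1.16 and 0.55.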

How the data were processed

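Deposited tables held raw counts of reads per gene, 1 per library, made by the authors from 3′ mRNA libraries (RNA columns with DNase treatment, per the labels' protocols). Demultiplexing used bcl2fastq and the build was mm9, per the submitters' processing notes. Aligner, counter, gene annotation and use of strand are not given in the sources used here. Reads of a gene and of an overlapping antisense gene thus cannot be told apart. Reads at a 3′ end outside the annotated gene would be missed, which the limits for 0 reads do not cover. Each table had 47643 gene rows and 5 summary rows, which were left out (no-feature reads 13.3 to 85.8% of a library). Ribosomal RNA rows held 25.1 to 63.8% of gene reads and were kept, and 47224 identifiers matched a symbol. Of 36 pairs of libraries within groups 0 were identical.

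Counts went into robust quasi-likelihood fits of edgeR 4.0.16 under R 4.3.3, after filterByExpr (minimum 10, total 15), with TMM factors of 0.269 to 10.5. All 22 thyroid libraries formed 1 fit (6 groups, 1900 genes) and the 12 libraries at 9 months another (4 groups, 974 genes). Ratios of summed reads carry exact 95% intervals. Members and lists were chosen with earlier results of these data known. The text names the 9 members, each tested pathway gene and the 5 genes most like Tg, except 1 item that is not reported here. The scripts were tested on simulated data. Alternatives were DESeq2 1.42.0, other scalings and filters, other sets of libraries, a replicate block and leaving out each library.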

Additional observations from a re-analysis of the deposited data

Results flagged for a closer look

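In groups of 4 libraries, 14 of 31 gene and group pairs had 1 library standing far from the other 3 (Dixon's ratio of gap to range above its 95% critical value). Chance flags about 1 in 20 groups of continuous values, but that rate does not apply to counts such as these. In 11 of the 14 pairs the other 3 libraries had 0 reads, where a single read is enough to set a library apart. No expected number is at hand, so whether 14 of 31 is an excess was not tested. The GFP+ replicate 4 at 3 months, the deepest of its group, stood out for Dio1 (85.7 CPM, 15 reads), Tshr (22.9 CPM, 4 reads), Slc5a5 (5.72 CPM, 1 read), Duox2 (28.6 CPM, 5 reads) and Slc5a8 (62.9 CPM, 11 reads). The GFP- replicate 1 at 6 months stood out for Tshr (134 CPM, 4 reads), Slc5a5 (67.0 CPM, 2 reads) and Duox2 (67.0 CPM, 2 reads).

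At 3 months the GFP- replicate 2 stood out for Tshr (42.8 CPM, 7 reads) and the GFP- replicate 3 for Duox2 (71.5 CPM, 2 reads). At 6 months the GFP- replicate 3 stood out for Slc5a8 (23.9 CPM, 5 reads), the GFP+ replicate 1 for Tshr (11.8 CPM, 1 read) and the GFP+ replicate 3 for Duox2 (15.3 CPM, 3 reads) and Slc5a8 (5.11 CPM, 1 read). The part of depth in these values was not tested.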

How the results depend on the processing

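Over the mean of ages 4 members were called. The count was 1 under a stricter filter (20 counts in 50% of the libraries), which tested 1 member, 2 in DESeq2, and 2 to 4 without 1 library. At 3 months 0 became 1 under the stricter filter, without libraries under 10000 reads and with only the groups compared, and was 0 to 1 without 1 library. At 9 months 3 became 0 with no filter, 1 with all 28 libraries in 1 fit (Iyd; Dio1 was not tested), 1 in DESeq2 (Tg; Dio1 had no adjusted p), 1 under the stricter filter and 1 with only the groups compared (both tested Tg alone and called it), and 0 to 4 without 1 library. The interaction with age went from 0 to 1 with DESeq2's size factors, library size alone, the stricter filter and without libraries under 10000 reads. Age within GFP+ went from 0 to 2 under the first, second and last of these and to 1 under the stricter filter, and was 0 to 1 without 1 library. Thyroid against salivary GFP- went from 2 to 1 with no filter (Iyd, with Tg and Slc26a7 lost), 0 under the stricter filter (no member tested), 1 with only the groups compared (Tg alone tested) and 0 to 3 without 1 library. In GFP+ it went from 0 to 1 with both other scalings, without ribosomal RNA rows, with only the groups compared and in DESeq2. Except as stated in the text, the cause was not tested.

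Signs turned for Slc26a7 at 3 months (0.33 with DESeq2's size factors, 0.19 with library size alone, 0.021 without libraries under 10000 reads and 0.31 in DESeq2), and between glands in GFP+, where it was -0.28 as fitted, 1.25 with DESeq2's size factors, 1.33 with library size alone, 0.85 with no filter, 4.22 without libraries under 10000 reads, 0.12 with all 28 libraries, 0.42 in DESeq2 and -1.13 to 4.13 without 1 library. The Tg gland interaction was 2.75 as fitted and -1.18 in DESeq2. Over the mean of ages, Canx was 0.050, 0.014 and 0.065 and Hspa5 0.026, 0.044 and 0.046 with DESeq2's size factors, library size alone and DESeq2. Prkaca was -0.013 without ribosomal RNA rows and -0.14 to 1.14 without 1 library, Ctsd -0.26 to 0.61 and Thra -1.29 to 0.78.

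Whether replicate numbers pair the samples is not stated in the labels. Of same-number GFP+ and GFP- pairs, 3 of 11 in thyroid (-0.09 to 0.35) and 2 of 3 in salivary gland (0.08 to 0.19) correlated above 0.1. Between the glands 0 of 3 did in either fraction. At this depth such correlations cannot decide whether the samples are paired. With a replicate block the calls at 9 months went from 3 to 0 (Tg -3.17, adjusted p = 0.696), and Slc26a7 over the mean of ages had adjusted p = 0.0947. Over all genes the mean of ages called 383, against 188 with that block and 63 of 321 under the stricter filter. The calls at 9 months were 36, against 3 with no filter, 5 with the block, 5 under the stricter filter, 13 in DESeq2 and 19 with only the groups compared. Those at 3 months were 184, and 22 to 265 over the alternatives, and those at 6 months 135, and 10 to 234. Depth limits Tshr, Slc5a5, Duox2, Slc26a4 and Slc5a8 to read counts, and libraries under 10000 reads say little of any member but Tg.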

Other observations

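Of 22 pathway genes too low to be tested, 6 had a ratio of summed thyroid reads between the fractions whose 95% counting interval left out 1. They were chosen after their values were seen and carry no test, and the intervals leave out the spread between libraries. The share of all low genes with such an interval was not counted, so 6 of 22 is not a result about the pathway. Dio2, the deiodinase that makes active hormone in peripheral tissues, had 63 reads in 8 of 11 GFP+ libraries and 11 reads in 6 of 11 GFP- libraries, a GFP+ to GFP- ratio of 6.45 (3.37 to 13.6). That is the opposite side from Dio1. At 6 months its GFP+ replicates 1 to 3 held 94.0, 144 and 51.1 CPM, and its highest GFP- level at any age was 37.7 CPM. Duox1, the second thyroid oxidase, had 16 reads in 4 GFP+ libraries, all at 6 or 9 months, and 0 in GFP-, where the lower bound of the ratio was 4.34. Duoxa1, the maturation factor of Duox1, had 14 reads in 6 GFP+ libraries and 4 in 1 GFP- library (3.94, 1.24 to 16.4). Ctsk, a cathepsin that can cleave thyroglobulin, had 38 reads in 8 GFP+ libraries and 13 in 4 GFP- libraries (3.29, 1.72 to 6.73). On the other side, Lrp2, a receptor that binds thyroglobulin, had 22 reads in 4 GFP+ libraries and 54 in 8 GFP- libraries (0.459, 0.266 to 0.766). Kcnq1, a potassium channel subunit linked to iodide uptake, had 15 reads in 6 GFP- libraries and 0 in GFP+, with an upper bound of 0.314.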
